A study of Mus musculus with 9 samples.

Results

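The 47 genes described here are listed DNA repair and Fanconi anaemia genes of the mouse, chosen by symbol for their known roles. No rule on the measured values was used, but earlier results of these data were known. All 47 were found among the 21253 genes of the count table, and all 47 passed the expression filter that left 12535 genes to be tested. They were read in 9 RNA sequencing libraries of AKP tumour organoids (tumoroids). The labels do not spell out the alleles behind the name AKP. A short hairpin RNA against Apc is held on by doxycycline in this model, so that removing the drug lets Apc return. In the control group (Apc OFF, 3 samples) doxycycline was kept, in the 2-day group (3 samples) Apc had been restored for 2 days, and in the 7-day group (3 samples) for 7 days. Both later groups lack doxycycline and differ from control in the drug, in Apc and in time without it, which cannot be told apart. The labels name the 2 restored stages early and late differentiation. They call the 3 samples of a group technical replicates and name no separate lines or animals, so every p-value here is set against a spread that may be technical only.

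As background, cells mend DNA breaks either by joining the ends directly or by homologous recombination, which copies the intact sister chromatid and is therefore used mainly after DNA has been replicated. The Fanconi anaemia proteins detect crosslinks between the strands at stalled replication forks, and their core complex attaches ubiquitin to the FANCD2-FANCI pair, which hands the lesion to the recombination proteins. Excision pathways remove damaged or mispaired bases. Genes of recombination and crosslink repair are typically transcribed with the replication programme under E2F factors, and in the intestine the dividing crypt cells express more of them than the mature cells of the villus.

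Totals ran from 24143589 to 32277040 counts per library. Levels are CPM, the read counts of a gene as a share of the TMM-scaled library total, and changes are log2 fold changes (log2FC) ± SE from edgeR. A gene is said to rise or fall where its Benjamini-Hochberg adjusted p over the 12535 genes was under 0.05. The epithelial list (Epcam, keratins and others) was expressed in every group, with a summed level of 9710 to 12800 CPM in controls and 26700 to 36400 CPM at 7 days. Of 8 immune markers 7 stayed below 1 CPM in each group, Ptprc among them, and their summed level was 1.32 to 1.78 CPM in controls, 1.7 to 2.06 CPM at 2 days and 3.92 to 5.84 CPM at 7 days, Cd68 reaching 3.36 CPM. All 9 fibroblast and endothelial markers stayed below 1 CPM (summed 0.736 to 1.52 CPM over the 9 libraries). The part of the immune markers in the results was not tested. Within groups, 2 kinds of departure touched the repair genes. Across the 47 members, the departure of control replicate 3 from the other controls had a Spearman correlation of −0.73 with the GC content of the longest transcript, and that of 7-day replicate 3 one of −0.77 within its group. Among the 11 members with at least 8 kb of exon, 2-day replicate 3 had a median log2 departure from the other 2 samples of its group of −0.18 and 2-day replicate 2 one of 0.21. In the 7-day group the same median was −0.25 for replicate 1 and 0.28 for replicate 3.

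After 7 days of Apc restoration almost the whole repair list had fallen. Of the 47 members 42 fell, 2 rose (Xpa and Wrn, neither with library size alone as the scaling) and 3 did not pass the test (Fancf, Xrcc4 and Xpc). Over all genes tested, 82.3% passed the test, 41.8% as lower and 40.5% as higher, against 89.4% lower and 4.26% higher among the members. The fall was at least 2-fold for 33 members, where 19.6% of all genes fell by that much, and at least 4-fold for 10, where 4.35% of all genes did. The median log2FC of the members was −1.47 beside −0.03 for all genes, and their summed level went from 1560, 1590 and 1580 CPM in controls to 638, 635 and 636 CPM. In bulk RNA, fewer cells of a type and less RNA per cell cannot be told apart. The summed level of the 34 DNA replication genes moved with this, from 4670 to 5190 CPM in controls to 1200 to 1340 CPM at 7 days, and Mki67, a protein of dividing cells, from 323 ± 4.6 to 143 ± 13.4 CPM (SD, n = 3). Their part in the result was not tested.

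Little of this was visible after 2 days. At that time 8 members fell and none rose, against 10.6% of all genes that fell and 13.1% that rose. The 8 were Ung, Parp1, Bard1, Apex1, Exo1, Msh6, Xrcc6 and Rad51d, and each fell by less than 2-fold, from 1.19-fold for Xrcc6 to 1.38-fold for Ung. At unadjusted p under 0.05, 17 members were lower and 1 was higher (16.8% and 17.9% of all genes), and both limma-voom and DESeq2 called 0 higher. The 2-day samples lay entirely below the controls for 18 members, where 19.4% of all genes did. The median log2FC was −0.15, with 0 for all genes, and the summed level stood at 1310 to 1390 CPM. The number that fell was 5 without control replicate 1, control replicate 2 or 2-day replicate 1, and 18 once a smooth trend with GC content had been removed from each library. The share of all genes is not given here for the fits without a sample, and with the GC trend removed it too was higher. The remaining fall took place between 2 and 7 days, when 43 members fell (39.9% of all genes) and 1 rose (39.2% of all genes), and the 7-day samples lay wholly below the 2-day ones for 43 (40.2% of all genes). The comparisons with control share the control samples, and those with the 2-day group share that group.

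**Figure D1:**
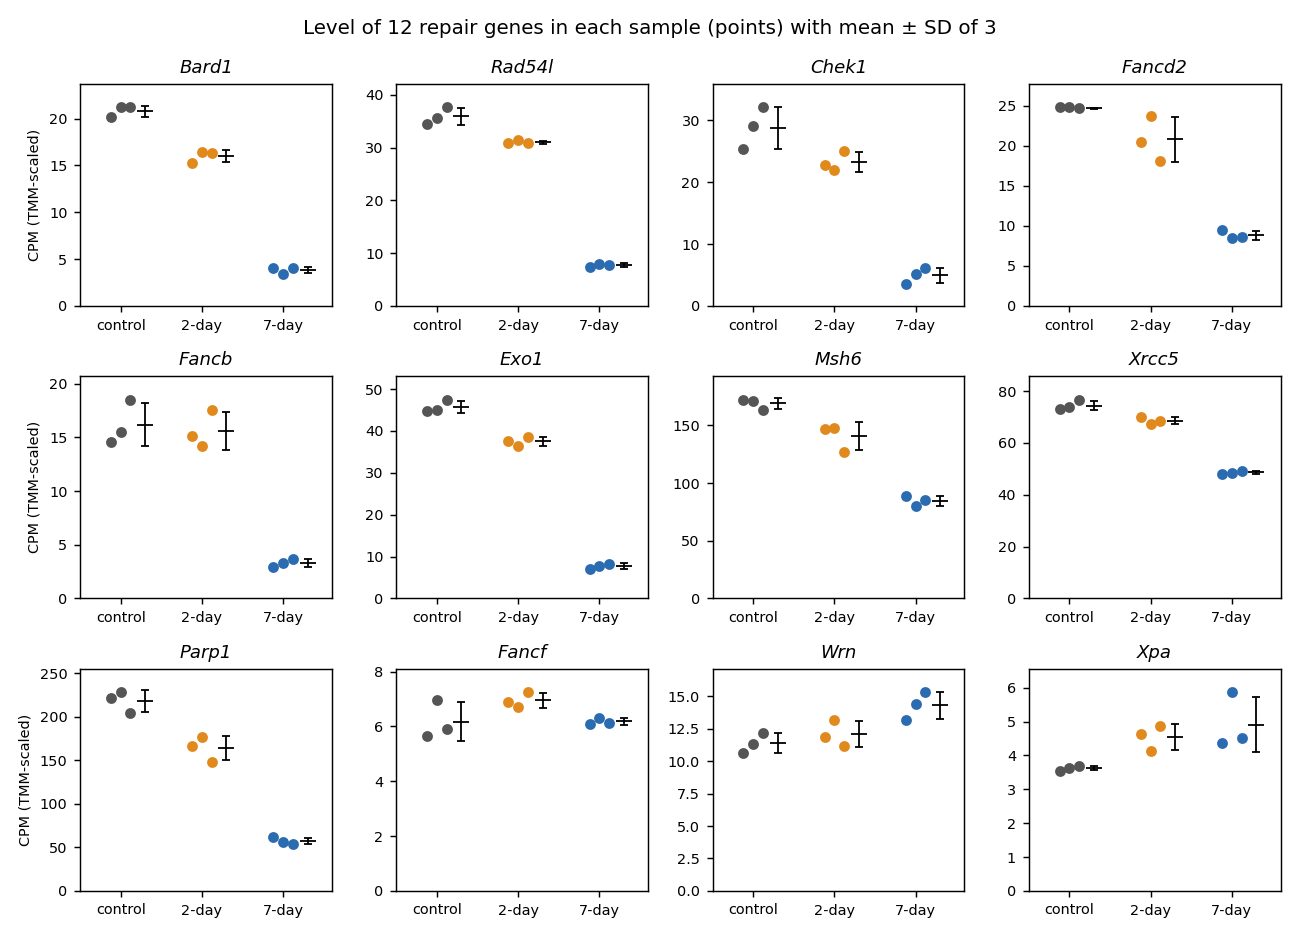
Level in CPM (y axis from 0) of 12 repair genes in the 3 control, 3 2-day and 3 7-day samples (points), with mean ± SD of 3 beside them. Bard1, Chek1, Exo1 and Parp1 lie far lower in all 7-day samples, Fancf stays near 6 CPM, and Wrn and Xpa end above their control samples on this scaling.

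Where several members move together, their promoters can be set side by side. RefSeq promoter windows (GRCm38.p6, from 250 bases before to 50 bases after a start) were matched by symbol for 38 of the 47 genes. They were searched on both strands for the E2F-type letters TTTCCCGC, TTTGGCGC and TTTCGCGC and for TTTGAA, the letters of the cell cycle genes homology region found before many genes used in mitosis. An E2F-type match stood in a window of 8 of the 38 (21.1%), beside 2.12% of the 27025 genes of the whole promoter table, which was not matched to the members for base composition or gene type. TTTGAA stood in 2 of the 38 (5.26%), beside 20.2% of all genes. The 8 genes with an E2F-type match were Bard1, Rad51c, Brca2, Msh3, Fancg, Chek2, Xrcc6 and Msh6. All 8 fell at 7 days with a median log2FC of −1.25, and of the 30 without one 27 fell with a median of −1.52.

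The 4 windows below are those of the matching genes with the largest falls at 7 days, and Fancf, which has no match and kept its level, is shown for comparison. This choice does not stand for the whole list. The lowest log2FC at 7 days was −2.61 among genes with a window but no match, and −2.44 among those with one. The part of these letters in the falls was not tested. Capitals mark the E2F-type letters, each window is written 5′ to 3′ on the strand of its gene, and its last 50 bases follow the start. In Bard1 (chr1:71102923-71103222, minus strand) the match TTTCCCGC begins 209 bases before the start. In Rad51c (chr11:87404905-87405204, minus strand) and Brca2 (chr5:150522371-150522670, plus strand) it lies on the opposite strand, with its first base in the printed window 5 and 168 bases before the start. Another window of Rad51c, which is not printed, holds TTTCGCGC on the strand of the gene, just after its start. In Msh3 (chr13:92354954-92355253, minus strand) TTTGGCGC and the opposite-strand match of TTTCGCGC overlap. The Fancf window lies at chr7:51862218-51862517 on the minus strand.
Bard1: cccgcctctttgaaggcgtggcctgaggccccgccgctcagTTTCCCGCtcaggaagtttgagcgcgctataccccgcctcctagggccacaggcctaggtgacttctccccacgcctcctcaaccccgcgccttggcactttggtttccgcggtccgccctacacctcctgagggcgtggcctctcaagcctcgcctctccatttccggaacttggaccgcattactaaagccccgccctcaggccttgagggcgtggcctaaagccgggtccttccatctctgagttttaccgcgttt
Rad51c: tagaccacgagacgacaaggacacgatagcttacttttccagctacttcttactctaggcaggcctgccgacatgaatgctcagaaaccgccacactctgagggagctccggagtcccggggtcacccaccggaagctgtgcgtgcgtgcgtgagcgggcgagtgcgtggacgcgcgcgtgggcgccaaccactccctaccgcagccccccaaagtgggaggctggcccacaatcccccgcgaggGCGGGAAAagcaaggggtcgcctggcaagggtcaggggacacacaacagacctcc
Brca2: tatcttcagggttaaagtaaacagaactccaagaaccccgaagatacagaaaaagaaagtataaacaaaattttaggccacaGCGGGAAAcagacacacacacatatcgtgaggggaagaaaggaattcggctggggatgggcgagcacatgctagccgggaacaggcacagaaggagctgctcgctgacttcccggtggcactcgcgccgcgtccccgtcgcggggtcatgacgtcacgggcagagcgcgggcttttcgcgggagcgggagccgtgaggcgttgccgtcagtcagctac
Msh3: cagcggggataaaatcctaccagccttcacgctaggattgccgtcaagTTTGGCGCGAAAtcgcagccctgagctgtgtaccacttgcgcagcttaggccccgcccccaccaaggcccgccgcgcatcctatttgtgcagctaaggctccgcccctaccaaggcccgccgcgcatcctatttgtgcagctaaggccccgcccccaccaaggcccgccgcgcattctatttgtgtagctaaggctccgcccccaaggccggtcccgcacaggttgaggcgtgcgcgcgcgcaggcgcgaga
Fancf: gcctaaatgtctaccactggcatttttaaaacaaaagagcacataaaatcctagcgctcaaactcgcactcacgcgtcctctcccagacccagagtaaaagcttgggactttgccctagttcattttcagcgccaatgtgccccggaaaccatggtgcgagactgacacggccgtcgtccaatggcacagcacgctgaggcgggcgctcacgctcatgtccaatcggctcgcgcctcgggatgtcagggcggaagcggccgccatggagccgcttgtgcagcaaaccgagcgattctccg

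All 12 recombination mediators fell at 7 days (41.8% of all genes), 11 of them by at least 2-fold (19.6% of all genes), with a median log2FC of −1.82. Bard1 (chromosome 1, 71027498 to 71103146, minus strand, GRCm38), the partner that forms a ubiquitin ligase with BRCA1, stood at 20.2, 21.2 and 21.2 CPM in controls, at 15.3, 16.4 and 16.3 CPM after 2 days and at 4.07, 3.45 and 4.03 CPM after 7 days. The groups did not overlap, and Bard1 was one of the few members already lower at 2 days (log2FC −0.38 ± 0.09, edgeR adjusted p = 0.0047). Its fall at 7 days was 5.42-fold (−2.44 ± 0.10, edgeR adjusted p = 7.1e-12). Brca1 itself (chromosome 11, 101488764 to 101551955, minus strand) went from 32.5, 35.7 and 36.7 CPM through 31.4, 34.3 and 27.6 CPM to 10.8, 11.7 and 14.6 CPM. Its 2-day samples overlapped the controls (−0.17 ± 0.11, edgeR adjusted p = 0.29), and its 7-day samples were 2.83-fold lower (−1.50 ± 0.12, edgeR adjusted p = 9.3e-09). Palb2, which bridges BRCA1 and BRCA2, held 8.46 ± 0.557 and 9.05 ± 0.703 CPM in controls and at 2 days and 2.56 ± 0.66 CPM at 7 days (SD, n = 3). Brca2, a mediator of strand exchange, fell 3.34-fold from 7.27 ± 0.684 to 2.17 ± 0.135 CPM.

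Xrcc2, Xrcc3, Rad51b, Rad51c and Rad51d encode related proteins that assist strand exchange, and they fell to unequal extents. Xrcc2 (chromosome 5, 25689812 to 25705825, minus strand) stood at 9.77, 9.21 and 9.66 CPM in controls, at 8.97, 8.31 and 9.39 CPM after 2 days and at 1.38, 2.1 and 1.91 CPM after 7 days. Its 2-day and control samples overlapped (edgeR adjusted p = 0.57), and its 7-day samples were 5.25-fold lower than the controls (log2FC −2.39 ± 0.14, edgeR adjusted p = 3.7e-10). Rad51d (chromosome 11, 82876434 to 82890614, minus strand) had the smallest fall of the group, with 18.5, 18.2 and 18.4 CPM in controls, at 14.8, 14.8 and 15.6 CPM after 2 days and at 10, 11.9 and 9.35 CPM after 7 days. Each of its groups lay below the one before, with a log2FC of −0.29 ± 0.09 at 2 days (edgeR adjusted p = 0.039) and −0.82 ± 0.10 at 7 days (edgeR adjusted p = 1.7e-06). The 2-day call was lost in 9 of 20 alternatives. Among them was every fit without a single control or 2-day library (edgeR adjusted p of 0.062 to 0.12). At 7 days Rad51c fell 4.31-fold to 0.805 ± 0.16 CPM, Xrcc3 fell 3.46-fold to 2.46 ± 0.144 CPM, and Rad51b fell 2.1-fold to 2.28 ± 0.3 CPM. None of these 3 had passed the test at 2 days, Xrcc3 with an edgeR adjusted p of 0.055 and samples wholly below the controls.

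Rad54l and Rad54b encode motor proteins that remodel the paired strands, and Rad52 a protein that anneals single strands. Rad54l fell 4.66-fold from 35.9 ± 1.54 to 7.69 ± 0.378 CPM at 7 days (log2FC −2.22 ± 0.09, edgeR adjusted p = 3e-12). Rad54b fell 3.71-fold from 11.6 ± 0.683 to 3.11 ± 0.143 CPM, and Rad52 fell 3.59-fold from 6.72 ± 0.609 to 1.86 ± 0.254 CPM. The strand setting of the counting is not given, so reads from overlapping genes may not have been told apart. Rad54l shares 15.4% of its exon bases with Lrrc41 on the other strand, whose own counts went from 46.9 to 81.1 CPM. Rad54b shares 35.8% with Fsbp on the same strand, which stayed at 0.504 CPM or less.

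The sensors and checkpoint kinases all fell at 7 days, 7 of 7 (41.8% of all genes), with a median log2FC of −1.23. At 2 days edgeR called 0 of them (10.6% of all genes fell), with 3 lower at an unadjusted p under 0.05 (16.8% of all genes). Chek1 (chromosome 9, 36708482 to 36727065, minus strand), the kinase that restrains the cell cycle when replication stalls, stood at 25.3, 29.1 and 32.1 CPM in controls, at 22.8, 21.9 and 25 CPM after 2 days and at 3.59, 5.11 and 6.09 CPM after 7 days. All its 2-day samples lay below the controls without passing the test (−0.31 ± 0.13, edgeR adjusted p = 0.096), and at 7 days it was 5.81-fold lower (−2.54 ± 0.15, edgeR adjusted p = 3.4e-10). Chek2 (chromosome 5, 110839979 to 110874145, plus strand), the kinase downstream of ATM, moved least of the group, with 28.9, 31.1 and 30.6 CPM in controls, at 25.5, 27.3 and 29.8 CPM after 2 days and at 18.5, 18.3 and 19.4 CPM after 7 days. The 7-day samples were tightly grouped below all others (−0.69 ± 0.09, edgeR adjusted p = 2.2e-06).

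The 3 genes of the MRN complex, which binds broken ends, fell by similar amounts. Mre11a (chromosome 9, 14784654 to 14837123, plus strand), its nuclease, stood at 79.5, 83 and 85.1 CPM in controls, at 73.7, 72.4 and 76.6 CPM after 2 days and at 32.7, 32.3 and 31.9 CPM after 7 days. Its 2-day samples were all below the controls but did not pass the test (edgeR adjusted p = 0.13), and the 7-day level was 2.56-fold lower (−1.35 ± 0.07, edgeR adjusted p = 9.4e-11). Rad50 fell 2.38-fold to 21.1 ± 0.698 CPM and Nbn fell 2.31-fold to 8.41 ± 1.16 CPM at 7 days. Of the large damage kinases, Atr fell 2.35-fold from 33.6 ± 2.29 to 14.2 ± 2.52 CPM and Atm 1.7-fold from 37.3 ± 2.92 to 21.9 ± 3.03 CPM. Both were lowest among the 2-day samples in replicate 3, at 23.8 CPM for Atr and 24.4 CPM for Atm, and for Atm that sample overlapped the 7-day group.

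Of the 8 genes of the Fanconi core complex and its anchor Fancm, 7 fell at 7 days, all at least 2-fold (19.6% of all genes), and Fancf kept its level. Fancb (chromosome X, 164980592 to 164997272, plus strand), which with FANCL forms part of the catalytic module, stood at 14.6, 15.5 and 18.5 CPM in controls, at 15.1, 14.2 and 17.6 CPM after 2 days and at 2.94, 3.34 and 3.63 CPM after 7 days. Control and 2-day samples overlapped, and every 7-day sample was far below both (4.88-fold, −2.29 ± 0.14, edgeR adjusted p = 3.8e-10). Fancc (chromosome 13, 63285043 to 63497278, minus strand), a core subunit, went from 13.2, 13 and 10.7 CPM through 10.5, 11.1 and 10.8 CPM to 3.38, 2.93 and 2.16 CPM. It was 4.38-fold lower at 7 days (−2.13 ± 0.15, edgeR adjusted p = 2.2e-09). Fancm, a DNA translocase that brings the complex to chromatin, fell 3.51-fold to 3.77 ± 0.799 CPM, and Fanca, a core subunit, 2.63-fold to 21.1 ± 1.39 CPM. Fance, which contacts FANCD2, fell 2.36-fold to 10.5 ± 1.83 CPM and Fancg 2.05-fold to 3.78 ± 0.306 CPM. Fancl, the ubiquitin ligase subunit, fell 2.04-fold to 3.7 ± 0.734 CPM. It shares 13.7% of its exon bases with Vrk2, which itself went from 9.52 to 3.78 CPM. Fanca shares 10.5% with Zfp276 (9.42 to 10.5 CPM), and Fancc 16.4% with Gm16133, which was not among the genes counted. The part of such shared reads was not tested.

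Fancf (chromosome 7, 51860577 to 51862267, minus strand), an adaptor subunit of the core, read 5.64, 6.97 and 5.89 CPM in controls, at 6.89, 6.71 and 7.24 CPM after 2 days and at 6.1, 6.31 and 6.12 CPM after 7 days. Its control and 7-day samples overlapped, with a log2FC of 0.00 ± 0.12 (edgeR adjusted p = 0.98). It shares 15% of its exon bases with Gas2 on the other strand, whose counts rose from 5.39 to 24.2 CPM, and the part of Gas2 reads in the Fancf level was not tested. With library size alone as the scaling, its log2FC was −0.40 and it passed the test as lower (edgeR adjusted p = 0.006).

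The substrates of the core complex, Fancd2 and Fanci, fell alike. Fancd2 (chromosome 6, 113531682 to 113597017, plus strand) stood at 24.8, 24.8 and 24.7 CPM in controls, at 20.5, 23.7 and 18.1 CPM after 2 days and at 9.43, 8.45 and 8.58 CPM after 7 days. Its 2-day samples were all lower than the controls without passing the test (−0.25 ± 0.10, edgeR adjusted p = 0.08), and the 7-day samples were 2.81-fold lower (−1.49 ± 0.11, edgeR adjusted p = 3.6e-09). Fanci (chromosome 7, 79391929 to 79450264, plus strand) stood at 18.7, 18.9 and 19.9 CPM, then 16.8, 19.8 and 14.5 CPM, then 7.05, 6.27 and 6.3 CPM. Its control and 2-day samples overlapped, and it was 2.94-fold lower at 7 days (−1.55 ± 0.12, edgeR adjusted p = 7.6e-09). Fanci shares 16% of its exon bases with Polg, which itself went from 98.3 to 42.6 CPM.

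Among the helicases and nucleases, Exo1 and Blm fell steeply and Wrn went the other way. Exo1 (chromosome 1, 175880581 to 175913489, plus strand), which resects broken ends and also serves mismatch repair, stood at 44.7, 45 and 47.4 CPM in controls, at 37.5, 36.3 and 38.6 CPM after 2 days and at 7.01, 7.74 and 8.32 CPM after 7 days. The groups were well separated, with a 1.22-fold fall at 2 days (−0.29 ± 0.08, edgeR adjusted p = 0.015). At 7 days Exo1 was 5.93-fold lower (−2.57 ± 0.09, edgeR adjusted p = 9e-13). The 2-day call was lost without control replicate 2 (edgeR adjusted p = 0.054) or 2-day replicate 1 (edgeR adjusted p = 0.057). Blm (chromosome 7, 80454733 to 80535119, minus strand), a helicase that dissolves crossed strands, stood at 25.6, 27.1 and 33.9 CPM, then 26.3, 28 and 24 CPM, then 5.28, 6.65 and 7.84 CPM. Its 2-day samples overlapped the controls and the 7-day samples were 4.36-fold lower (−2.12 ± 0.14, edgeR adjusted p = 1.5e-09). Rad18, a ubiquitin ligase that starts bypass of damage at the fork, fell 3.1-fold at 7 days from 33.9 ± 4.66 to 10.9 ± 1.76 CPM.

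Wrn (chromosome 8, 33234384 to 33385527, minus strand), a helicase of the same RecQ family as Blm, read 10.6, 11.3 and 12.2 CPM in controls, at 11.9, 13.2 and 11.2 CPM after 2 days and at 13.2, 14.4 and 15.3 CPM after 7 days. The 7-day samples all lay above the controls, by 1.26-fold (0.33 ± 0.10, edgeR adjusted p = 0.007), and at or above the 2-day samples (0.24 ± 0.10, edgeR adjusted p = 0.037). The rise rests on the scaling, since with library size alone the log2FC against control was −0.07. The call against 2 days was lost in 8 of 20 alternatives and reversed in 1. Among the losses were the fits without 2-day replicate 1 or 3, 7-day replicate 2 or 3 or control replicate 2 (edgeR adjusted p of 0.056 to 0.14).

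Of the 3 end joining members 2 fell at 7 days (41.8% of all genes), and the median log2FC of the 3 was −0.62 beside −1.47 for all members. Xrcc6 (chromosome 15, 81987835 to 82040085, plus strand), the Ku70 subunit that caps broken ends, stood at 68.4, 70.9 and 66.2 CPM in controls, at 58.5, 54.2 and 60.6 CPM after 2 days and at 35.1, 36.9 and 31.7 CPM after 7 days. Each group lay below the one before, with a log2FC of −0.25 ± 0.08 at 2 days (edgeR adjusted p = 0.035) and −0.99 ± 0.08 at 7 days (edgeR adjusted p = 1.9e-08). The 2-day call of Xrcc6 was lost in 5 of 20 alternatives. Among them were the fits without replicate 1 or 2 of the control or of the 2-day group (edgeR adjusted p of 0.087 to 0.15). Its Ku80 partner Xrcc5 (chromosome 1, 72307421 to 72394952, plus strand) stood at 73.1, 73.7 and 76.6 CPM, then 70.1, 67.3 and 68.3 CPM, then 48.2, 48.5 and 49 CPM. Its samples too were ordered without overlap, and its 7-day fall was 1.53-fold (−0.62 ± 0.07, edgeR adjusted p = 5.9e-07). Xrcc4 (chromosome 13, 89774027 to 90089608, minus strand), the scaffold of the ligase, read 6.41, 5.6 and 7.49 CPM, then 7.5, 6.78 and 8.75 CPM, then 5.15, 5.07 and 6.38 CPM. Control and 7-day samples overlapped (−0.22 ± 0.15, edgeR adjusted p = 0.17), and the 7-day samples lay below the 2-day ones (−0.47 ± 0.14, edgeR adjusted p = 0.0075). In 1 of 20 alternatives Xrcc4 was called lower than control, and its lowest log2FC among the alternatives was −0.62.

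The 3 mismatch repair members fell at 7 days (41.8% of all genes). Pms2 (chromosome 5, 143909964 to 143933968, plus strand), a subunit of the nicking complex, stood at 23.1, 22.2 and 23 CPM in controls, at 19, 20.5 and 19.2 CPM after 2 days and at 6.62, 8.94 and 6.89 CPM after 7 days. It was 3.03-fold lower at 7 days (−1.60 ± 0.11, edgeR adjusted p = 2.1e-09), and its 2-day samples lay below the controls without passing the test (edgeR adjusted p = 0.13). Msh3 (chromosome 13, 92211872 to 92355003, minus strand), which recognises insertion loops and whose window is printed above, stood at 17.5, 17.7 and 21.2 CPM, then 15.8, 17 and 18.3 CPM, then 5.58, 6.98 and 7.62 CPM. Its log2FC at 7 days was −1.47 ± 0.12 (edgeR adjusted p = 2.4e-08). Msh6 (chromosome 17, 87975062 to 87990892, plus strand), which recognises single mispairs, stood at 172, 171 and 163 CPM, then 147, 148 and 127 CPM, then 88.3, 79.8 and 85.2 CPM. The groups did not overlap. Msh6 fell at 2 days (−0.26 ± 0.08, edgeR adjusted p = 0.026, lost at 0.083 to 0.11 when control replicate 1, control replicate 2 or 2-day replicate 3 was left out) and was 2-fold lower at 7 days (−1.0 ± 0.08, edgeR adjusted p = 1.6e-08).

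Base excision and single-strand break repair held 3 of the 8 members that had already fallen at 2 days, when 10.6% of all genes fell. Ung (chromosome 5, 114130386 to 114139323, plus strand), the glycosylase that removes uracil from DNA, showed the largest fall of all members at both times. It stood at 29.4, 33.6 and 32.5 CPM in controls, at 22.1, 22.7 and 24.3 CPM after 2 days and at 5.54, 5.22 and 4.88 CPM after 7 days. The groups were widely separated, and the 2-day fall was 1.38-fold (−0.47 ± 0.09, edgeR adjusted p = 0.00098). The 7-day fall reached 6.12-fold (−2.61 ± 0.10, edgeR adjusted p = 2.5e-12). Parp1 (chromosome 1, 180568924 to 180601254, plus strand), the polymerase that marks strand breaks with ADP-ribose, stood at 222, 228 and 204 CPM, then 166, 177 and 148 CPM, then 61.6, 56.7 and 54.1 CPM. It fell 1.33-fold at 2 days (−0.41 ± 0.08, edgeR adjusted p = 0.0021). By 7 days Parp1 had fallen 3.79-fold (−1.92 ± 0.09, edgeR adjusted p = 2e-11).

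Apex1 (chromosome 14, 50924968 to 50927139, plus strand), the endonuclease that cuts at the emptied site, stood at 82.8, 79.1 and 74.6 CPM in controls, at 65.3, 60.7 and 65.6 CPM after 2 days and at 20.5, 20.8 and 19.4 CPM after 7 days. The groups did not overlap (−0.30 ± 0.07, edgeR adjusted p = 0.0077, and −1.96 ± 0.08, edgeR adjusted p = 4.6e-12). It shares 61.7% of its exon bases with Pip4p1 on the other strand, which went from 38.7 to 44 CPM, so its level depends on how shared reads were counted. Parp2 (chromosome 14, 50807841 to 50821301, plus strand), the second DNA-dependent PARP, moved far less than Parp1, at 32.6, 34.4 and 35.8 CPM, then 34.7, 35.6 and 37.7 CPM, then 20.9, 21 and 19.1 CPM. It overlapped the controls at 2 days (0.07 ± 0.08, edgeR adjusted p = 0.58) and fell 1.69-fold at 7 days (−0.75 ± 0.08, edgeR adjusted p = 4.9e-07). Xrcc1, the scaffold of this pathway, fell 1.97-fold at 7 days from 54.5 ± 6.4 to 27.7 ± 3.44 CPM.

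The 3 nucleotide excision members, which serve the repair of bulky lesions, had a median log2FC of −0.14 at 7 days, beside −1.47 for all members. This did not hold for the wider pathway. Of 18 other nucleotide excision genes 16 fell (88.9%, beside 41.8% of all genes), with a median log2FC of −0.67. Xpa (chromosome 4, 46155347 to 46196311, minus strand), the protein that verifies the lesion, read 3.55, 3.64 and 3.69 CPM in controls, at 4.62, 4.12 and 4.88 CPM after 2 days and at 4.37, 5.86 and 4.51 CPM after 7 days. Both later groups lay above the controls, and only the 7-day difference passed the test (0.44 ± 0.14, edgeR adjusted p = 0.0098, 2-day edgeR adjusted p = 0.11). The 7-day call was lost without 7-day replicate 2 (0.30, edgeR adjusted p = 0.075) and with library size alone (0.04). Xpc (chromosome 6, 91489305 to 91515888, minus strand), the lesion sensor, read 14.9, 15.2 and 14.6 CPM, then 15, 14.5 and 12.3 CPM, then 13.2, 13.5 and 13.8 CPM. Its 7-day samples lay just below the controls without passing the test (−0.14 ± 0.10, edgeR adjusted p = 0.18). In 3 of 20 alternatives Xpc was called lower, and its lowest log2FC among the alternatives was −0.54. Ercc1 (chromosome 7, 19344778 to 19356524, plus strand), a subunit of the nuclease that cuts beside the lesion, read 24.4, 22.5 and 18.3 CPM, then 21.8, 21 and 22.4 CPM, then 19.3, 17.5 and 13.3 CPM. Its control and 7-day samples overlapped, and its fall (−0.38 ± 0.13, edgeR adjusted p = 0.014) was lost without control replicate 1 or 7-day replicate 3 (edgeR adjusted p = 0.065 and 0.073).

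**Figure D2:**
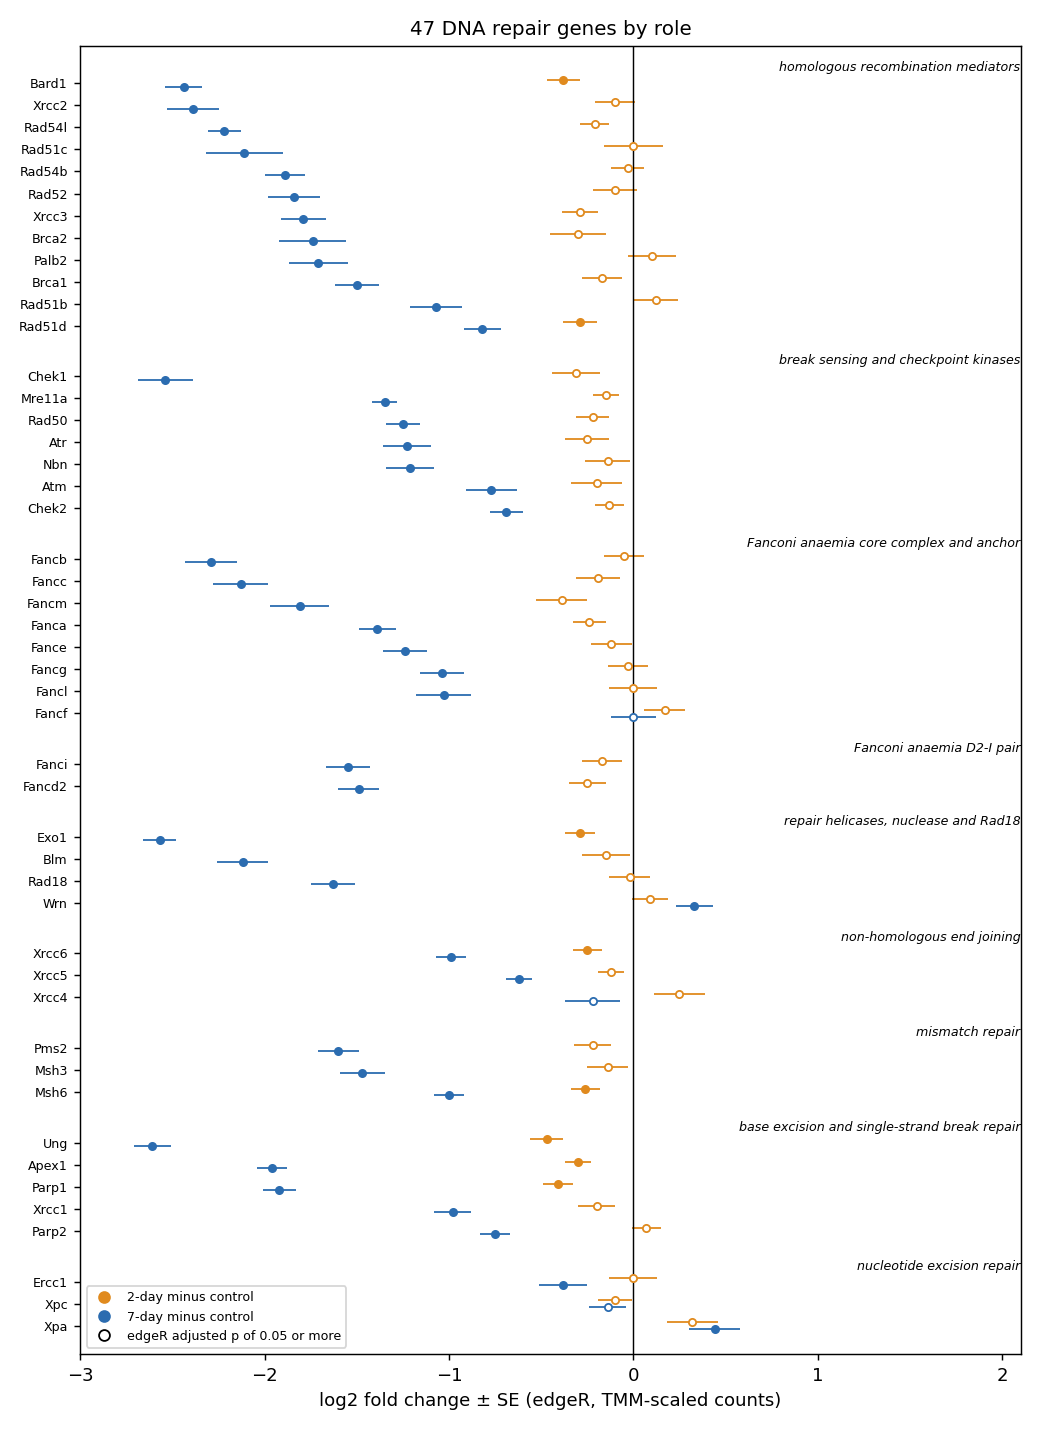
Log2 fold change ± SE (x axis, edgeR) of each of the 47 members against control at 2 days and 7 days, grouped by role, with open circles where the adjusted p was 0.05 or more. The 2-day values lie between −0.47 and 0.32, and the 7-day values between −2.61 and 0.44 with Wrn and Xpa alone called higher (neither with library size alone as the scaling, where Wrn turned to −0.07).

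Per kilobase of exon, which allows genes to be compared, the order of the members changed with the fall. In controls Apex1 was highest with 55.4 ± 2.89 CPM per kb, followed by Parp1 with 41.2 ± 2.35 and Msh6 with 38.8 ± 1.1 CPM per kb, the last pair lying within about 1 SD of each other, and then Xrcc5 with 29.1 ± 0.724 CPM per kb. At 7 days Msh6 (19.4 ± 0.984 CPM per kb) and Xrcc5 (19 ± 0.161 CPM per kb) headed the list and did not differ beyond their spread, while Apex1 stood at 14.2 ± 0.545 and Parp1 at 10.9 ± 0.719 CPM per kb. Brca2 was lowest in each group, with 0.533 ± 0.0501 CPM per kb in controls and 0.159 ± 0.00984 at 7 days. Fancf moved from rank 24 to rank 12 of the 47 without a change in level, Xpa from 35 to 16, and Chek1 from 15 to 28. Exon lengths join all annotated transcripts of a gene, so genes with many isoforms can read low on this scale.

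**Figure D3:**
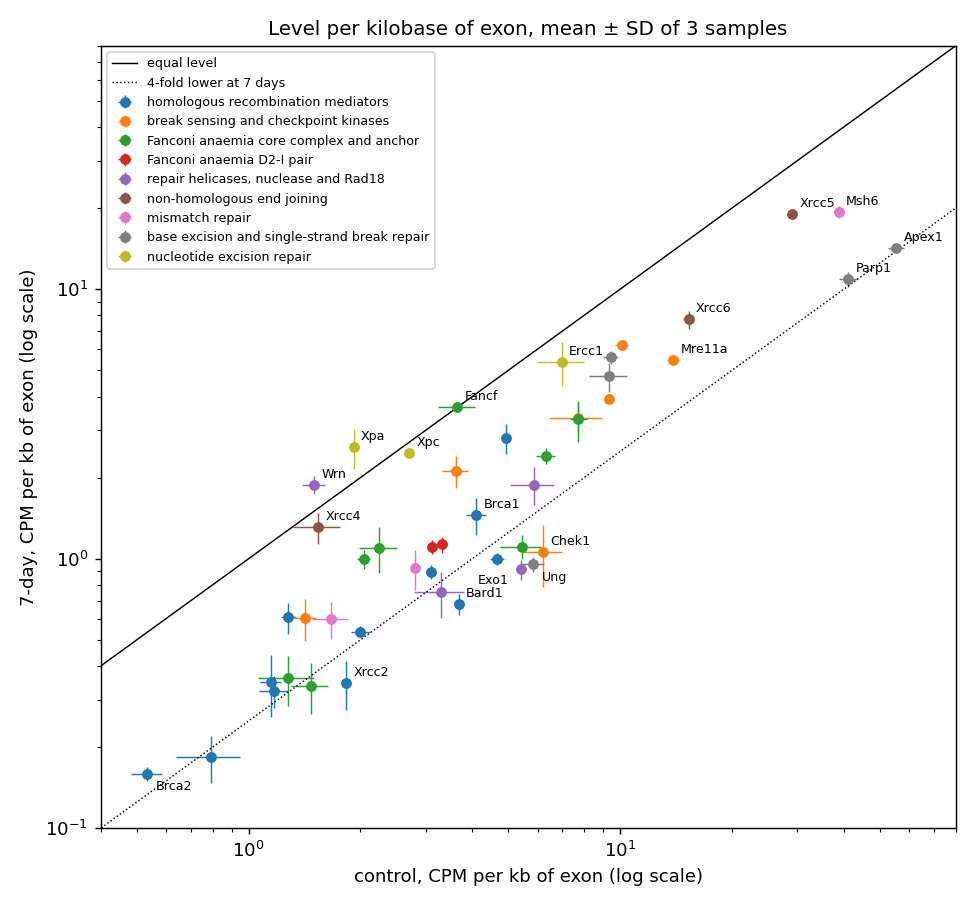
Mean ± SD (n = 3) of each member's level per kilobase of exon in controls (x axis, log scale) and at 7 days (y axis, log scale), coloured by role, with lines for an equal level and for a 4-fold lower level. Fancf lies on the line of equal level, Wrn and Xpa above it, and Ung, Exo1, Chek1 and Bard1 below the 4-fold line.

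Other genes of the same pathways, listed by function in 7 lists, were mostly lower at 7 days. Hrob, Shfm1 and Shld3 were listed too, but no counted gene was matched to these symbols, and they were left out. The lists then held 128 genes, of which 127 were tested. Of these 100 fell (78.7%, beside 41.8% of all genes), 13 rose and 14 did not pass the test, with a median log2FC of −0.75. At 2 days 13 fell, a share of 10.2% beside 10.6% of all genes, and 2 rose. Of 27 other recombination genes 24 fell at 7 days and 2 rose. Fignl1, an ATPase of recombination, fell from 68.9 to 13.5 CPM, Rpa2, a subunit of the single-strand binding protein, from 87.9 to 22 CPM, and Rmi2, a partner of Blm, from 10.1 to 1.41 CPM. Tonsl, a reader of newly replicated chromatin, rose from 26.1 to 35.9 CPM, and Swi5 from 85.5 to 101 CPM. Of 23 damage signalling and checkpoint genes 21 fell at 7 days. Those with the smallest p were the fork protection pair Timeless (57.7 to 11.2 CPM) and Tipin (81.8 to 15.3 CPM) and Clspn, the mediator of Chek1 activation (55.5 to 15.1 CPM). Babam2 (52.3 to 69.8 CPM) and Babam1 (90.8 to 109 CPM) of the BRCA1-A complex rose. Library size alone as the scaling lowers each log2FC at 7 days by about 0.4, which is more than the rise of Swi5 (0.24) or Babam1 (0.26) and close to that of Babam2 (0.41) or Tonsl (0.46). H2afx, the histone variant phosphorylated at breaks, was 117 CPM in controls, rose to 151 CPM at 2 days and fell to 49.6 CPM at 7 days.

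Of 15 further Fanconi and crosslink genes 11 fell (73.3%, beside 41.8% of all genes) and 4 did not pass the test at 7 days. Faap24, the partner of Fancm, fell from 52.8 to 15 CPM, Ube2t, the ubiquitin-conjugating enzyme of the core complex, from 13.7 to 3.68 CPM, and Rfwd3 from 136 to 66 CPM. Of 23 base excision and single-strand break genes 17 fell (73.9%) and 5 rose (21.7%, beside 40.5% of all genes). The flap nuclease Fen1 (14.2 to 3.38 CPM), the replicative ligase Lig1 (219 to 62.4 CPM) and Tdp1 (48.6 to 14.3 CPM) fell, whereas Parp3 (29.4 to 48.5 CPM) and Aptx (7.41 to 10.5 CPM) rose. Of 18 nucleotide excision genes 16 fell and 1 rose, with a median log2FC of −0.67. Ercc8, which couples this repair to transcription, fell from 21.7 to 4.49 CPM, and Uvssa of the same branch rose from 3.74 to 6.02 CPM.

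Of 9 further end joining genes 3 fell (33.3%, beside 41.8% of all genes), 2 rose (22.2%, beside 40.5%) and 4 did not pass the test at 7 days. Their median log2FC was 0.09, which is smaller than the shift of −0.4 that library size alone brings. Paxx, a factor that stabilises the Ku complex, rose from 8.86 to 18.7 CPM, having risen to 11.8 CPM by 2 days, and the nuclease Dclre1c fell from 10.1 to 5.43 CPM. Prkdc, the kinase recruited by Ku, was at 12.3 CPM in controls and 11.1 CPM after 7 days (edgeR adjusted p = 0.26). Of 12 translesion and direct reversal genes 8 fell (66.7%) and 1 rose (8.33%), Polh going from 18.9 to 7.79 CPM. All 34 DNA replication genes fell at 7 days, 33 by at least 2-fold (19.6% of all genes), with a median log2FC of −1.92. At 2 days 14 of them had fallen (41.2%, beside 10.6% of all genes). Of 19 E2F family and proliferation genes 13 fell at 7 days (68.4%, beside 41.8% of all genes) and 4 rose (21.1%, beside 40.5%). Their median log2FC was −1.17. E2f1 fell from 33.7 to 25.2 and 7.15 CPM, while E2f2 rose from 32.2 to 62.1 and 76.2 CPM. Rb1, a restraining partner of E2F factors, went from 9.09 to 10.4 and 22.6 CPM, a rise that passed the test at 7 days alone. Whether the repair genes moved through these factors was not tested.

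**Figure D4:**
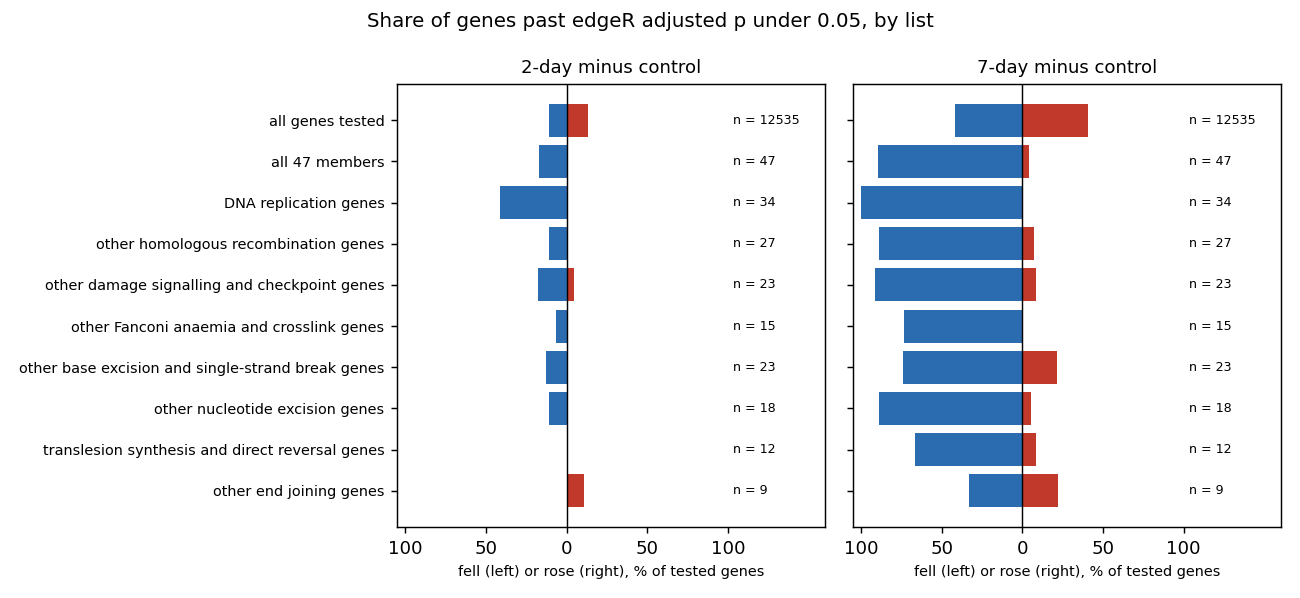
Share of tested genes in each list that fell (left of 0) or rose (right of 0) at an edgeR adjusted p under 0.05, in percent, at 2 days (left panel) and 7 days (right panel), with the number tested. At 7 days 89.4% of the 47 members and 100% of the 34 replication genes fell beside 41.8% of all genes, and the further end joining genes stood at 33.3%.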

How the data were processed

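RNA of 9 samples of mouse AKP tumour organoids was sequenced as poly(A) libraries made with a NEBNext Ultra II kit, per the labels' protocols. The values are raw counts of reads per Ensembl gene, deposited by the authors as 1 table. STAR 2.7.0e, featureCounts and DESeq2 with mm10/GRCm38 were used, per the submitters' processing notes. Which annotation and strand setting the authors used is not given in the sources used here, so counts of overlapping genes are uncertain. Groups were taken from the sample titles, 3 samples each.

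Gene IDs were matched to GENCODE M21 (GRCm38), which also gave coordinates and exon lengths. Counts were filtered with filterByExpr, scaled by TMM (control factors 1.073 to 1.125, 2-day factors 1.093 to 1.117, 7-day factors 0.785 to 0.874) and tested in edgeR 4.0.16 (R 4.3.3) with a quasi-likelihood model of the group over all 9 samples, two-sided, Benjamini-Hochberg adjusted over 12535 genes. The SE is the absolute log2 fold change over the square root of F. The 3 comparisons were 2-day and 7-day against control and 7-day against 2-day. The code was tested on simulated data. No pair of replicates agreed within sampling noise (chi-square per degree of freedom 4.24 to 38.3).

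Values in every sample are given for the 2 members with the largest and the 1 with the smallest change at 7 days in each role group, for those that rose and for those called at 2 days, and for Brca1, which was chosen after its values were seen. In the other lists up to 3 genes with the smallest p at 7 days and up to 2 called in the other direction are named, and H2afx, Prkdc, Mki67 and the overlap partners were chosen after their values were seen. The members and lists were chosen with earlier results of these data known. Because TMM presumes a stable majority of genes, which the 7-day comparison (82.3% called) may not give, other scalings were tried, and limma 3.58.1 and DESeq2 1.42.0 served as alternative tests.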

Additional observations from a re-analysis of the deposited data

How the results depend on the processing

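Of the 20 alternatives run for each comparison, all kept the direction of every called member except that Wrn turned to −0.07 (against control) and −0.17 (against 2 days) with library size alone. That scaling shifts the median of all genes by −0.4 at 7 days against control and −0.42 against 2 days, and leaves the median member at −1.87 and −1.65. Of the 44 members called at 7 days against control, 41 kept their call in every alternative that tested them, and of the 44 against 2 days 42 did, the exceptions being Xpa, Wrn and Ercc1. Rad51b, Rad51c, Rad52 and Xpa were not tested with a mean of at least 5 CPM and so had 19 alternatives. Of the 8 called at 2 days, 4 did (Bard1, Ung, Apex1 and Parp1). The number that fell at 2 days was 18 with the GC trend removed, when 16.5% of all genes fell, 15 with the replicate number as a block, and 5 to 11 with 1 sample left out. Among the alternatives, the share of all genes is given here for the GC setting alone. The other counts of falls and rises cannot be set against it. The number that rose at 7 days against control was 0 with library size alone, 1 with a mean of at least 5 CPM, and 1 to 2 with 1 sample left out. Against 2 days it was 0 with library size alone, with upper-quartile factors, without a filter and with only the 2 groups compared, and 0 to 1 with 1 sample left out. The cause was not tested. Replicate numbers paired the samples only in part: deviations of same-numbered samples correlated from −0.13 to 0.48, over 0.1 in 4 of 9 pairs. The largest were those of control and 7-day replicate 3 (0.48) and replicate 1 (0.33), while replicate 2 of these groups gave −0.01. Of 9 samples 5 correlated best with their own number in each other group. The main fit did not include the replicate number. Apart from the count at 2 days, the block changed no number of members called. Counts were lowest for Rad51c, with 18 to 26 per library at 7 days.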
